A study of Mus musculus with 30 samples.

Results

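The clustered replication-dependent histone genes are the gene family whose mouse symbols begin with Hist1h to Hist4h, the number naming the gene cluster and the following letters the histone type. Every row of the deposited expression tables with such a symbol was taken, whatever its values, which gave 68 of 23284 rows. By symbol, 6 of these are of the linker histone H1 type, 18 of H2A, 19 of H2B, 12 of H3 and 13 of H4. The large Hist1 cluster holds 54 of the 68, Hist2 holds 10, Hist3 holds 3 and Hist4 holds 1. The H2B rows include Hist3h2bb-ps, whose symbol marks a pseudogene and which had 7 reads over all libraries.

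The study asked how p53, Wnt and TGF-β act together when mouse cells take on mesendoderm fate, and measured RNA in embryonic stem (ES) cells and in embryoid bodies (EBs), the aggregates in which such cells differentiate. In the time course, 2 libraries were made on each of 5 days from wild-type E14Tg2a.IV cells (129/Ola background, called E14 here), which are ES cells grown with serum and LIF at day 0 and EBs at days 1, 2, 3 and 4. In the genotype comparison, 2 libraries came from day 4 EBs of Trp53-/- cells that also carried p63shRNA and p73shRNA, a group named p53 family loss in what follows, and 2 from day 4 EBs of Trp53+/+ cells. Both of these lines have a C57BL/6J background and were kept in N2B27 medium with LIF and the inhibitors PD0325901 and CHIR99021. Loss of p53 and the hairpins therefore come together, the number of clones is not given, and an EB mixes differentiating cell types. The labels do not say whether libraries of a group came from separate cultures, and the p-values cover no spread beyond that of these libraries, which may be technical.

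Cells make most of their histones during DNA replication, when these genes are transcribed together and their protein packages the newly copied DNA. H2A, H2B, H3 and H4 form the nucleosome core, around which DNA is wrapped, and H1 binds the linker DNA between nucleosomes. The mRNAs of replication-dependent histone genes end in a stem-loop in place of a poly(A) tail, and the stem-loop binding protein SLBP governs their processing, translation and decay. Some of the genes also make polyadenylated transcripts, for example in cells that leave the cycle. The TruSeq RNA v2 kit named in the labels selects poly(A) RNA, so the levels here describe what that selection leaves and not the whole histone mRNA pool.

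The deposited values are read counts divided by 1 factor per library (normalised read counts), and whole reads could be recovered from them. Each time course library held 20104644 to 39835808 of them, and libraries of the genotype comparison held 19104692 to 31580252. Trp53 had 866 and 802 normalised counts in the p53 family loss libraries, against 8339 and 11780 in the Trp53+/+ libraries. Trp73 had 48.0 and 52.5 in p53 family loss, against 219 and 297 in Trp53+/+. Trp63 was near 0 in all 4 libraries, with 0 to 6.08 normalised counts, and checks nothing. In E14, 6 ES cell markers summed to 725 and 584 RPM (reads per 1000000 recovered reads) at day 4, against 3464 and 3267 at day 0, and 6 streak and mesoderm markers to 2007 and 1771 at day 4, against 19.4 and 11.8 at day 0. One library stood apart. The first replicate of day 0 had 9923 normalised counts of Cdkn1a, a cyclin-dependent kinase inhibitor, where the other 9 E14 libraries had 1272 to 3069. Its small non-polyadenylated RNA genes summed to 346 RPM, where the other 9 had 150.5 to 209. Counts of histone genes called without this library are given where they changed.

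At least 10 reads were counted for 51 of the 68 histone genes in 1 or more time course libraries, and for 19 in every one. In the genotype table, 51 reached 10 reads in at least 1 library and 24 in all 4. Over all 14 libraries together, 55 reached 10 reads somewhere, 17 did so everywhere, and 13 stayed under 10 reads throughout. Single libraries held 25 to 47 such genes in E14, 38 and 51 in p53 family loss, and 27 and 44 in Trp53+/+. All 68 together had 1042 to 2034 reads per E14 library, 2439 and 3339 in p53 family loss, and 1085 and 1561 in Trp53+/+. The median gene of the family had 152 reads summed over the 14 libraries.

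No read was listed in any of the 14 libraries for 6 of the genes, Hist1h2ao, Hist1h2ap, Hist1h2bq, Hist1h2br, Hist1h4m and Hist2h2aa2. A count of 0 allows up to 3 reads, or 0.0753 to 0.157 RPM depending on the library, counting error only. Histone genes of 1 type are near copies of each other. How reads that match several copies were counted is not given in the sources used here, so the split of reads between near-identical genes, and the zeros, are uncertain.

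Testis histones had few reads. Hist1h2ba, an H2B of male germ cells, had 3 reads over all libraries and Hist1h2aa, an H2A of the same cells, had 13. Hist1h1t, the H1 of spermatocytes, had 55 reads in all. It had 2 and 1 reads at day 0, 5 and 10 at day 1, 9 and 12 at day 2, 2 and 2 at day 3 and 1 and 2 at day 4 in E14, and 0 and 7 in p53 family loss, against 0 and 2 in Trp53+/+. None of the 3 passed the filter on low counts of the fit reported below. With no such filter, Hist1h1t and Hist1h2aa were called in the test for any change over the 5 days, where 29.8% of all genes were.

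Promoters of this family carry well-known boxes, shown here for genes that the results turn on, where a promoter sequence was found. RefSeq promoter windows (GRCm38.p6, 250 bases before to 50 after the start) were found for 61 of the 68 genes, Hist1h2bc not among them. The letters TATAAA, to which the TBP protein binds, were found on either strand in 57.4% of these windows, against 13.6% of all 32851 windows in the table. CCAAT, the box bound by NF-Y, was in 85.2% against 37.4%. It was in every window of H1, H2A, H2B and H3 genes and in 3 of 12 H4 windows. The octamer ATTTGCAT, bound by Oct factors and known from H2B promoters, was in 21.3% of the family's windows against 1.74% of all. It lay only in H2A (7 of 17) and H2B (6 of 16) windows. Some H2A and H2B genes are transcribed away from each other, with 163 to 280 bases between their starts. Their windows overlap, so the same box can be counted for both, as was the octamer of Hist1h2ah and Hist1h2bk. The H1 box AAACACA was in 5 of 6 H1 windows, against 7.18% of all. None of these sets of letters contains another, and a match is a description of the sequence only.

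The following stretches end at the base before the annotated start, 5′ to 3′, with these letters in capitals on either strand (ATTGG is the box of NF-Y, and ATGCAAAT the octamer, read from the other strand). Hist1h1a, Hist1h2bl and Hist1h4k were lower at day 4 than at day 0. Hist3h2a was higher in p53 family loss, and Hist1h1c and Hist1h4i were the most abundant H1 and H4 genes. Hist1h2ac, whose window reaches toward Hist1h2bc, stands beside the gene with the largest difference between the genotypes.

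Hist1h1a, GRCm38.p6 chr13:23763518-23763667 (+ strand): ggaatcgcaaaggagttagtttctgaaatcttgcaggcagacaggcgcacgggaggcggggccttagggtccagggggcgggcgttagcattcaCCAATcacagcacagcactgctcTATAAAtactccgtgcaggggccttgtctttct

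Hist1h2bl, GRCm38.p6 chr13:21716184-21716333 (- strand): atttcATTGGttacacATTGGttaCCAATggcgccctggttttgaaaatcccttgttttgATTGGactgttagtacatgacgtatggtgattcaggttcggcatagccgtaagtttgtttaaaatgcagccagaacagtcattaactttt

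Hist1h4k, GRCm38.p6 chr13:21750554-21750703 (- strand): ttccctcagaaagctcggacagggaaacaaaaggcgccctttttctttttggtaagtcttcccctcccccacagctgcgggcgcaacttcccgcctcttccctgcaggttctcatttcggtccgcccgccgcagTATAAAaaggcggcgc

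Hist3h2a, GRCm38.p6 chr11:58954535-58954684 (+ strand): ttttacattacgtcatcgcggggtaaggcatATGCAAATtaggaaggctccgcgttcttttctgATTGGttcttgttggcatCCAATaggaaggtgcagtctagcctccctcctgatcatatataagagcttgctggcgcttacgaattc

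Hist1h1c, GRCm38.p6 chr13:23738657-23738806 (+ strand): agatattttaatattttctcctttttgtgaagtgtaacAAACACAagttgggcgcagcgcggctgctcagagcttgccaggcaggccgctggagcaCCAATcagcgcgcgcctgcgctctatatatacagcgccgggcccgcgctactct

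Hist1h4i, GRCm38.p6 chr13:22041363-22041512 (- strand): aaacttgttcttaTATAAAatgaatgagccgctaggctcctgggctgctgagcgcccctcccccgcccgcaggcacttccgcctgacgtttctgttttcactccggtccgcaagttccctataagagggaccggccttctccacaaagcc

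Hist1h2ac, GRCm38.p6 chr13:23683960-23684189 (- strand): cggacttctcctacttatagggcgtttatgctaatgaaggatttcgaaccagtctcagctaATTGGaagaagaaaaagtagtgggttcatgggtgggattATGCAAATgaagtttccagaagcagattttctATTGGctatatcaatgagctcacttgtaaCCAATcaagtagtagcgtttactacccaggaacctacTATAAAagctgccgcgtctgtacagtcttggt

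Of these 7 stretches, Hist1h1a lacks the H1 box that the other 5 H1 genes hold, and both H4 stretches lack CCAAT. Hist3h2a and Hist1h2ac each hold the octamer on the other strand.

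The summed level of the family was low and dipped on days 1 and 4 of the time course. All 68 genes together made up 48.5 and 53.4 RPM at day 0, 34.3 and 42.2 at day 1, 49.5 and 60.7 at day 2, 61.2 and 51.9 at day 3, and 44.4 and 37.9 at day 4. Both day 1 libraries and both day 4 libraries lay below both libraries of days 0, 2 and 3. Sums were not tested. In these bulk samples, fewer cells in replication, less histone mRNA per cell and a smaller share left by poly(A) selection cannot be told apart.

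Every type summed to less at day 1 than at day 0 (ratios of means 0.565 to 0.844) and to more at day 2 than at day 1 (1.31 to 1.96). Every type also summed to less at day 4 than at day 3 (0.516 to 0.905). The sizes of these steps differed, as did the direction between days 4 and 0. H4 genes summed to 4.97 and 4.19 RPM at day 4, against 8.94 and 8.80 at day 3, a ratio of means of 0.516. H3 genes summed to 3.67 and 4.87 at day 1, against 7.13 and 7.97 at day 0, a ratio of 0.565. H2B genes summed to 11.4 and 9.75 at day 4, against 16.4 and 16.8 at day 0, a ratio of 0.637. H2A genes summed to more at day 4, with 10.1 and 8.88 at day 4 against 6.64 and 8.86 at day 0, a ratio of 1.22. H1 genes hardly differed in sum between those days, with 11.7 and 9.86 at day 4 and 10.8 and 12.01 at day 0. The sums were also taken without the gene of each type with most reads, an alternative added after the data were seen. Without Hist3h2a, H2A summed to 5.31 and 3.57 at day 4, against 4.05 and 5.97 at day 0, a ratio of 0.886 in place of 1.22. Without Hist1h2bc, H2B summed to 9.03 and 7.79 at day 4, against 7.75 and 10.01 at day 0, a ratio of 0.947. For both types the days then overlapped. Without Hist1h1c the ratio of H1 was 0.642, and H3 and H4 kept ratios below 1, at 0.785 without Hist1h3c and 0.61 without Hist1h4i.

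Replicates differed by more than counting error in several sums. At day 3 the H1 genes had 9.15 RPM in replicate 2, against 16.5 in replicate 1, a ratio of 0.555 (exact 95% interval 0.466 to 0.658, counting error only), and all 5 tested H1 genes were lower there. The sum of the whole family had a ratio of replicate 2 to replicate 1 between 0.848 and 1.23 on the 5 days.

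**Figure D1:**
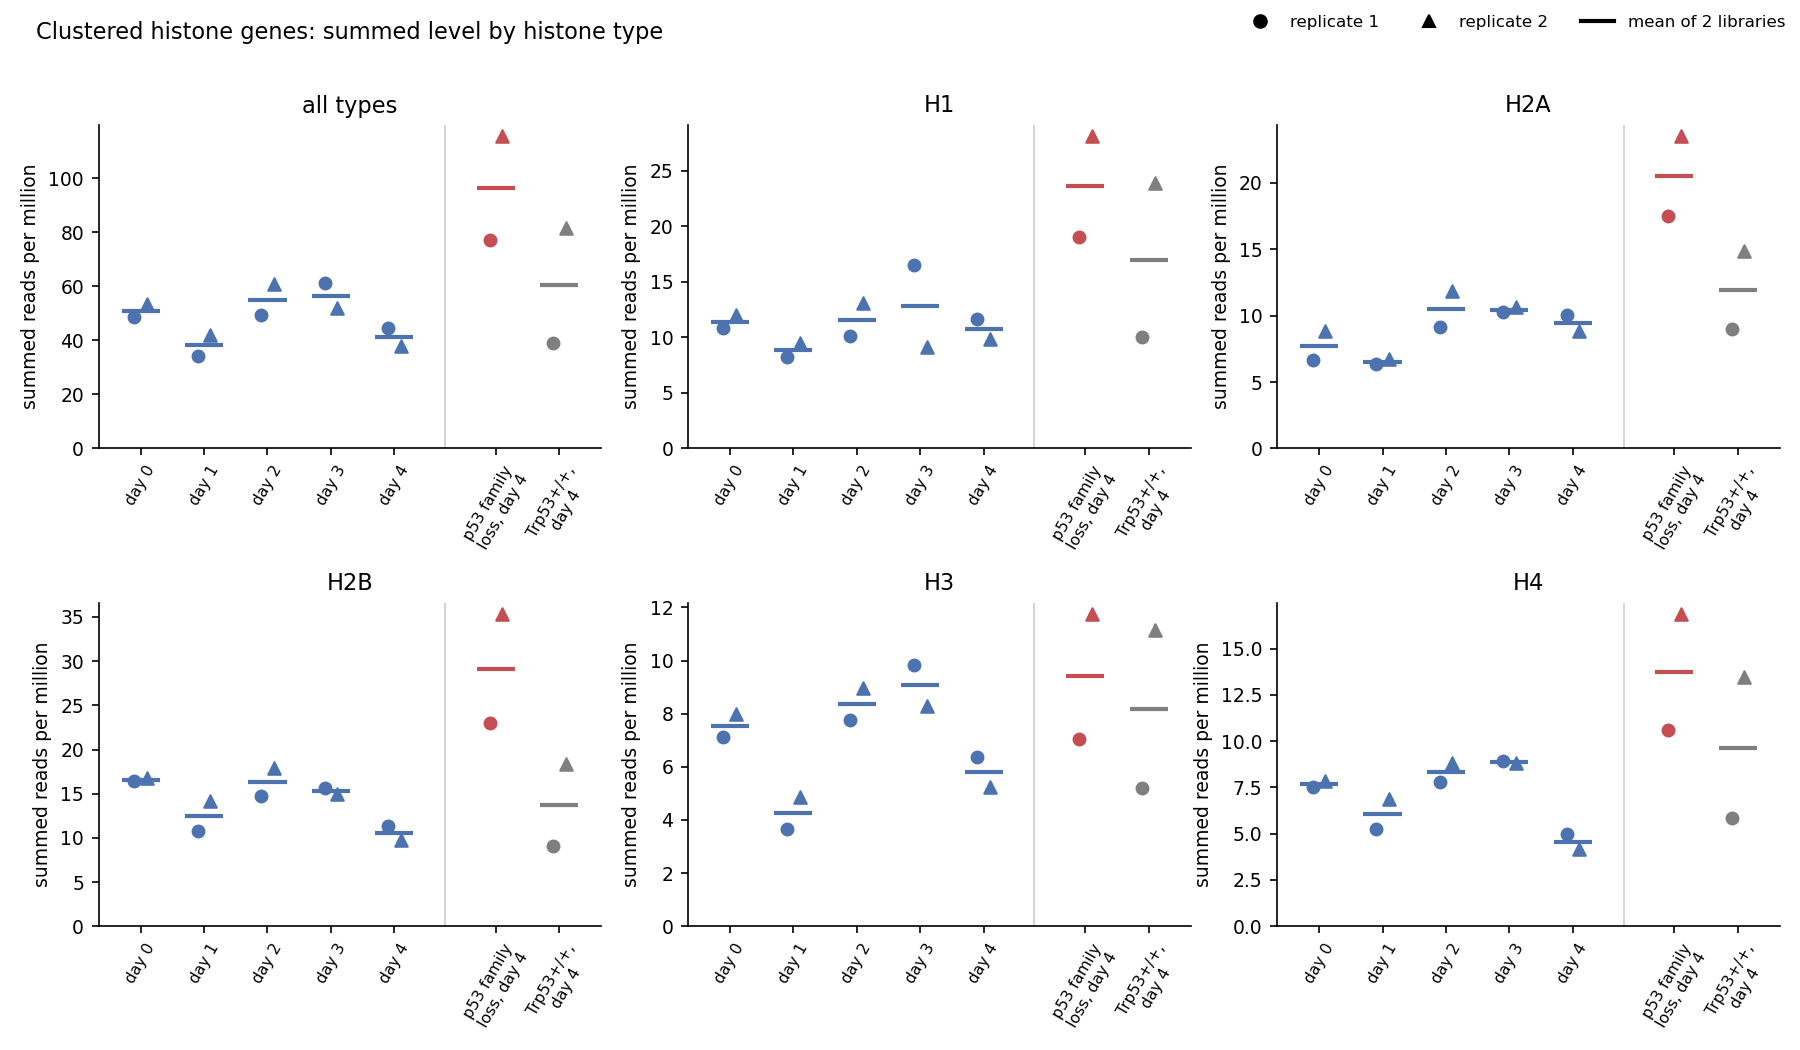
Summed RPM of the histone genes, all types together and by type, in each library (circles replicate 1, triangles replicate 2, bars the mean of 2 libraries), for E14 days 0 to 4 and, right of the line, for day 4 EBs of p53 family loss and of Trp53+/+. H4 genes averaged 4.58 at day 4 and 8.87 at day 3, and replicate 2 lies above replicate 1 for every type in both genotypes.

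Few histone genes changed between ES cells and day 4 EBs by the test, and those that did were lower. The test was limma on log2 of the normalised count plus 1, with Benjamini-Hochberg adjusted p under 0.05 over all 15841 genes that passed a filter on low counts, and 46 of the 68 histone genes passed it. Of the 46, 4 were lower at day 4, where 16.7% of all genes tested were called lower. None was higher, where 19.2% of all genes were (36% in either direction), and the largest values above 0 were 0.91 for Hist2h2be and 0.83 for Hist1h1e. The median log2 fold change of the 46 was -0.619, against 0.0132 over all genes, and 38 of 46 were below 0. At an unadjusted p under 0.05 there were 10, all lower, where 46.6% of all genes reached it in either direction.

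Hist1h2bc, the most abundant H2B gene, declined day by day. It had 291 and 216 normalised counts at day 0, 188 and 192 at day 1, 111 and 133 at day 2, 93.5 and 84.5 at day 3, and 68.4 and 58.7 at day 4. Each day lay below the day before in both libraries, without overlap. Its means were 63.6 ± 6.89 at day 4 and 254 ± 52.9 at day 0 (SD, n = 2 each), a log2 fold change of -1.97 ± 0.31 (SE, limma adjusted p = 0.00112). It was called in all 19 settings tried, the reported one included, and no other histone gene was.

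Hist1h1a, an H1 gene, had 26.4 and 15.2 normalised counts at day 4, against 87.8 and 76.0 at day 0. It was also at 31.9 and 42.3 on day 1, and higher again on days 2 and 3, at 49.5 to 77.2. Its log2 fold change at day 4 against day 0 was -1.97 ± 0.43 (SE, limma adjusted p = 0.00633), and the call was lost without replicate 2 of day 4.

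The other calls rest on few reads. Hist1h4k, an H4 gene, had 1 and 4 reads at day 4, against 10 and 8 at day 0, a log2 fold change of -1.84 ± 0.61 (SE, limma adjusted p = 0.0391). Hist1h2bl, an H2B gene, had 5 and 0 reads at day 4, against 6 and 11 at day 0, a log2 fold change of -2.19 ± 0.75 (SE, limma adjusted p = 0.0445). edgeR and DESeq2 called neither, and each dropped out in several of the fits without 1 library, those of days 2 and 3 included. Over all histone genes the count called at day 4 was 2 to 6 when 1 library was left out. It was 6 without replicate 1 of day 0 (40.1% of all genes), and 2 without either library of day 2, either of day 3, or replicate 2 of day 4 (17.4% to 32.3%). edgeR called 2 (Hist1h2bc and Hist1h1a) and DESeq2 called 3 (these and Hist1h4i), where they called 35.6% and 39.6% of all genes.

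By type, the medians between day 4 and day 0 were -0.818 for H4, where all 10 tested genes were below 0, -0.802 for H2B (12 of 14), -0.612 for H3 (7 of 9), -0.346 for H2A (6 of 8) and -0.152 for H1 (3 of 5). Within H1 the genes parted. Hist1h1e had 35.5 and 27.2 normalised counts at day 4, against 17.6 and 16.6 at day 0. Hist1h1b had 10.7 and 7.61 at day 4, against 28.5 and 29.7 at day 0, and Hist1h1c and Hist1h1d overlapped between the days. None of these 4 passed the test (limma adjusted p 0.0834 to 0.858).

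Further genes did not pass the test at day 4 against day 0. Hist1h3c, the H3 gene with most reads, had 58.2 and 78.4 normalised counts at day 0, 23.3 and 43.1 at day 1, 65.6 and 79.1 at day 2, 96.3 and 81.6 at day 3, and 52.0 and 37.0 at day 4. Hist1h2ae, an H2A gene, had 38.8 and 22.8 at day 4, against 26.3 and 55.8 at day 0. Hist4h4, the lone gene of its cluster, had 4.12 and 5.44 at day 4, against 9.88 and 7.12 at day 0. Hist1h3c was lowest on days 1 and 4, and Hist1h2ae overlapped between days 4 and 0.

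Both libraries of day 4 lay below both of day 0 for 27 of the 46 tested histone genes, and above them for 5. Over all genes tested, 32.7% lay below and 34.0% above without overlap.

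**Figure D2:**
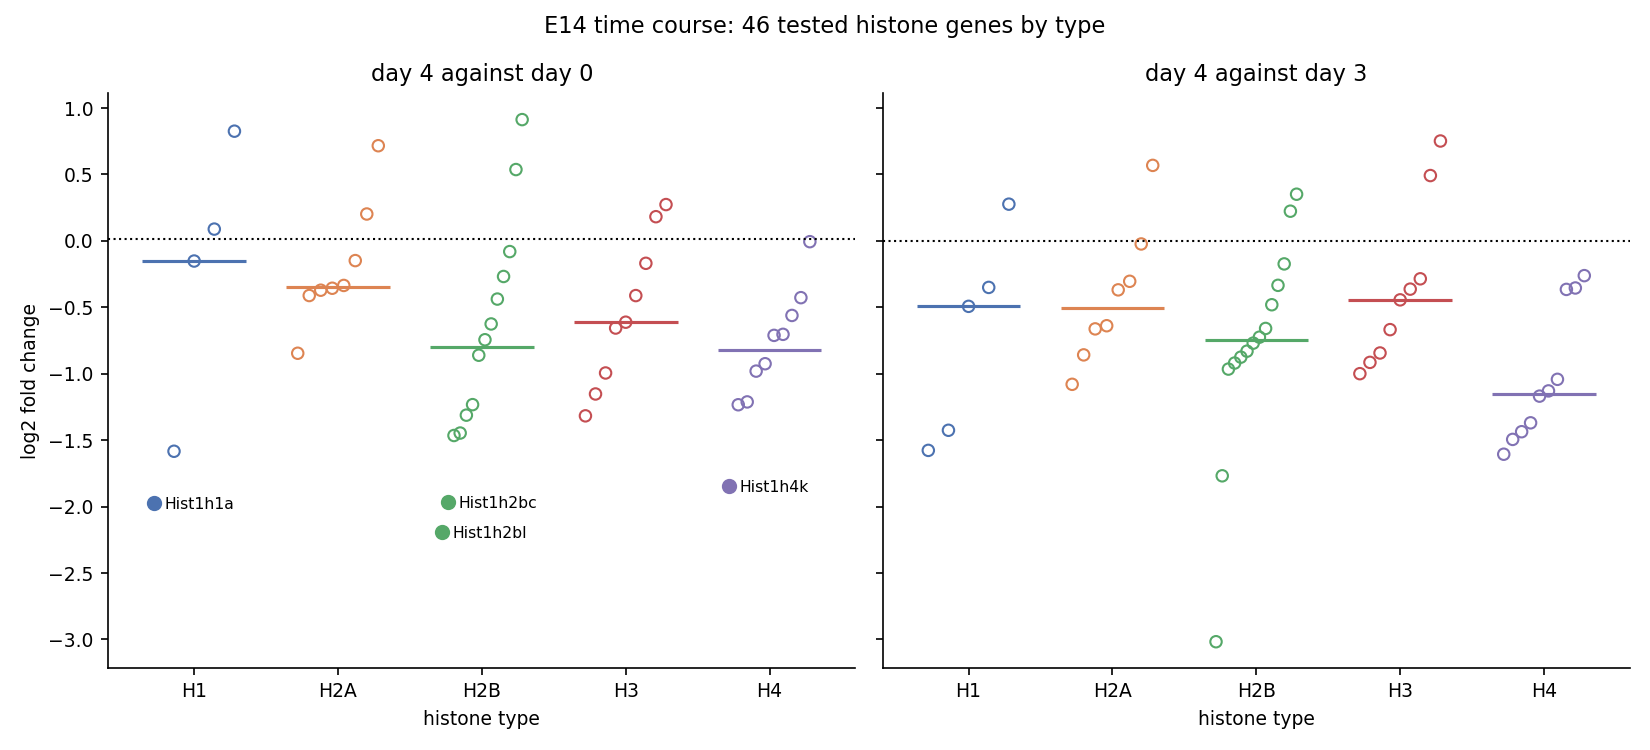
Log2 fold changes of the 46 tested histone genes by type, day 4 against day 0 on the left and day 4 against day 3 on the right. Filled points passed limma at adjusted p under 0.05, bars are medians by type and the dotted line is the median of all genes tested. The 4 filled points are all on the left and below 0, and the H4 median on the right is -1.15.

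From each day to the next, limma called no histone gene. Between day 1 and day 0 the 46 had a median of -0.554, with 38 below 0 and 4 at an unadjusted p under 0.05 (Hist1h1a, Hist1h3c, Hist1h3e and Hist1h4c, all lower), where 20.1% of all genes reached that p. edgeR and DESeq2 called none, where they called 3.18% and 9.15% of all genes. limma called 3.3% of all genes tested, 1.75% higher and 1.55% lower. Both day 1 libraries lay below both day 0 libraries for 25 histone genes and above for none, where 19.7% and 19.8% of all genes did.

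Between day 2 and day 1 the direction turned, with a median of 0.714 and 38 of 46 above 0. There were 8 at an unadjusted p under 0.05, all higher, where 19.3% of all genes reached it in either direction. None was called by limma, edgeR or DESeq2, where limma called 0.593% of all genes, 0.158% higher and 0.436% lower. edgeR called 0.48% of all genes and DESeq2 8.12%. Hist1h3e, an H3 gene, had 40.1 and 39.1 normalised counts at day 2, against 12.9 and 14.4 at day 1, and 42.8 and 35.6 at day 0. Its day 1 libraries lay far below both neighbouring days, and it was called in the test for any change over the 5 days (limma adjusted p = 0.0373). That test called 4 histone genes, the others being Hist1h2bc, Hist1h1a and Hist1h2bl, where 38.9% of all genes were called. The 4 become 8 without either library of day 0 (51.2% and 64.6% of all genes), 1 without either library of day 2 or replicate 2 of day 4, and 2 or 3 without any other library. Without replicate 2 of day 0, Hist1h3e alone of the histone genes was called at day 1 against day 0, where 31.8% of all genes were. Without either library of day 0 it alone of them was called at day 2 against day 1 (10.6% and 10.7% of all genes).

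Between day 3 and day 2 the median was -0.0136, with 23 of 46 above 0. Only Hist1h3g reached an unadjusted p under 0.05, by limma, where 10.4% of all genes did. No tool called a histone gene, where limma called 0.133% of all genes, edgeR 0.152% and DESeq2 1.99%.

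Between day 4 and day 3 the median was -0.665 and 40 of 46 were below 0. The 9 at an unadjusted p under 0.05 were all lower and included 4 of the 10 H4 genes, Hist1h4b, Hist1h4d, Hist1h4h and Hist1h4k, where 14.9% of all genes reached that p. limma and edgeR called none and DESeq2 called Hist1h1a. Of all genes, limma called 2.93% (2.31% higher and 0.619% lower), edgeR 2.87% and DESeq2 6.41%. Hist1h4d, among the most abundant H4 genes, had 24.7 and 21.7 normalised counts at day 4, against 49.6 and 48.1 at day 3. Hist1h4i, the most abundant H4 gene, had 63.5 and 48.9 at day 4, against 83.0 and 62.6 at day 3, and overlapped between the days. Both day 4 libraries lay below both day 3 libraries for 29 histone genes, where 27.4% of all genes did. Without either library of day 0, limma called 3 (Hist1h1a, Hist1h2bl and Hist1h4b), where 8.17% of all genes were called, and without replicate 1 of day 4 it called Hist1h2bl alone of the histone genes (0.714% of all).

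**Figure D3:**
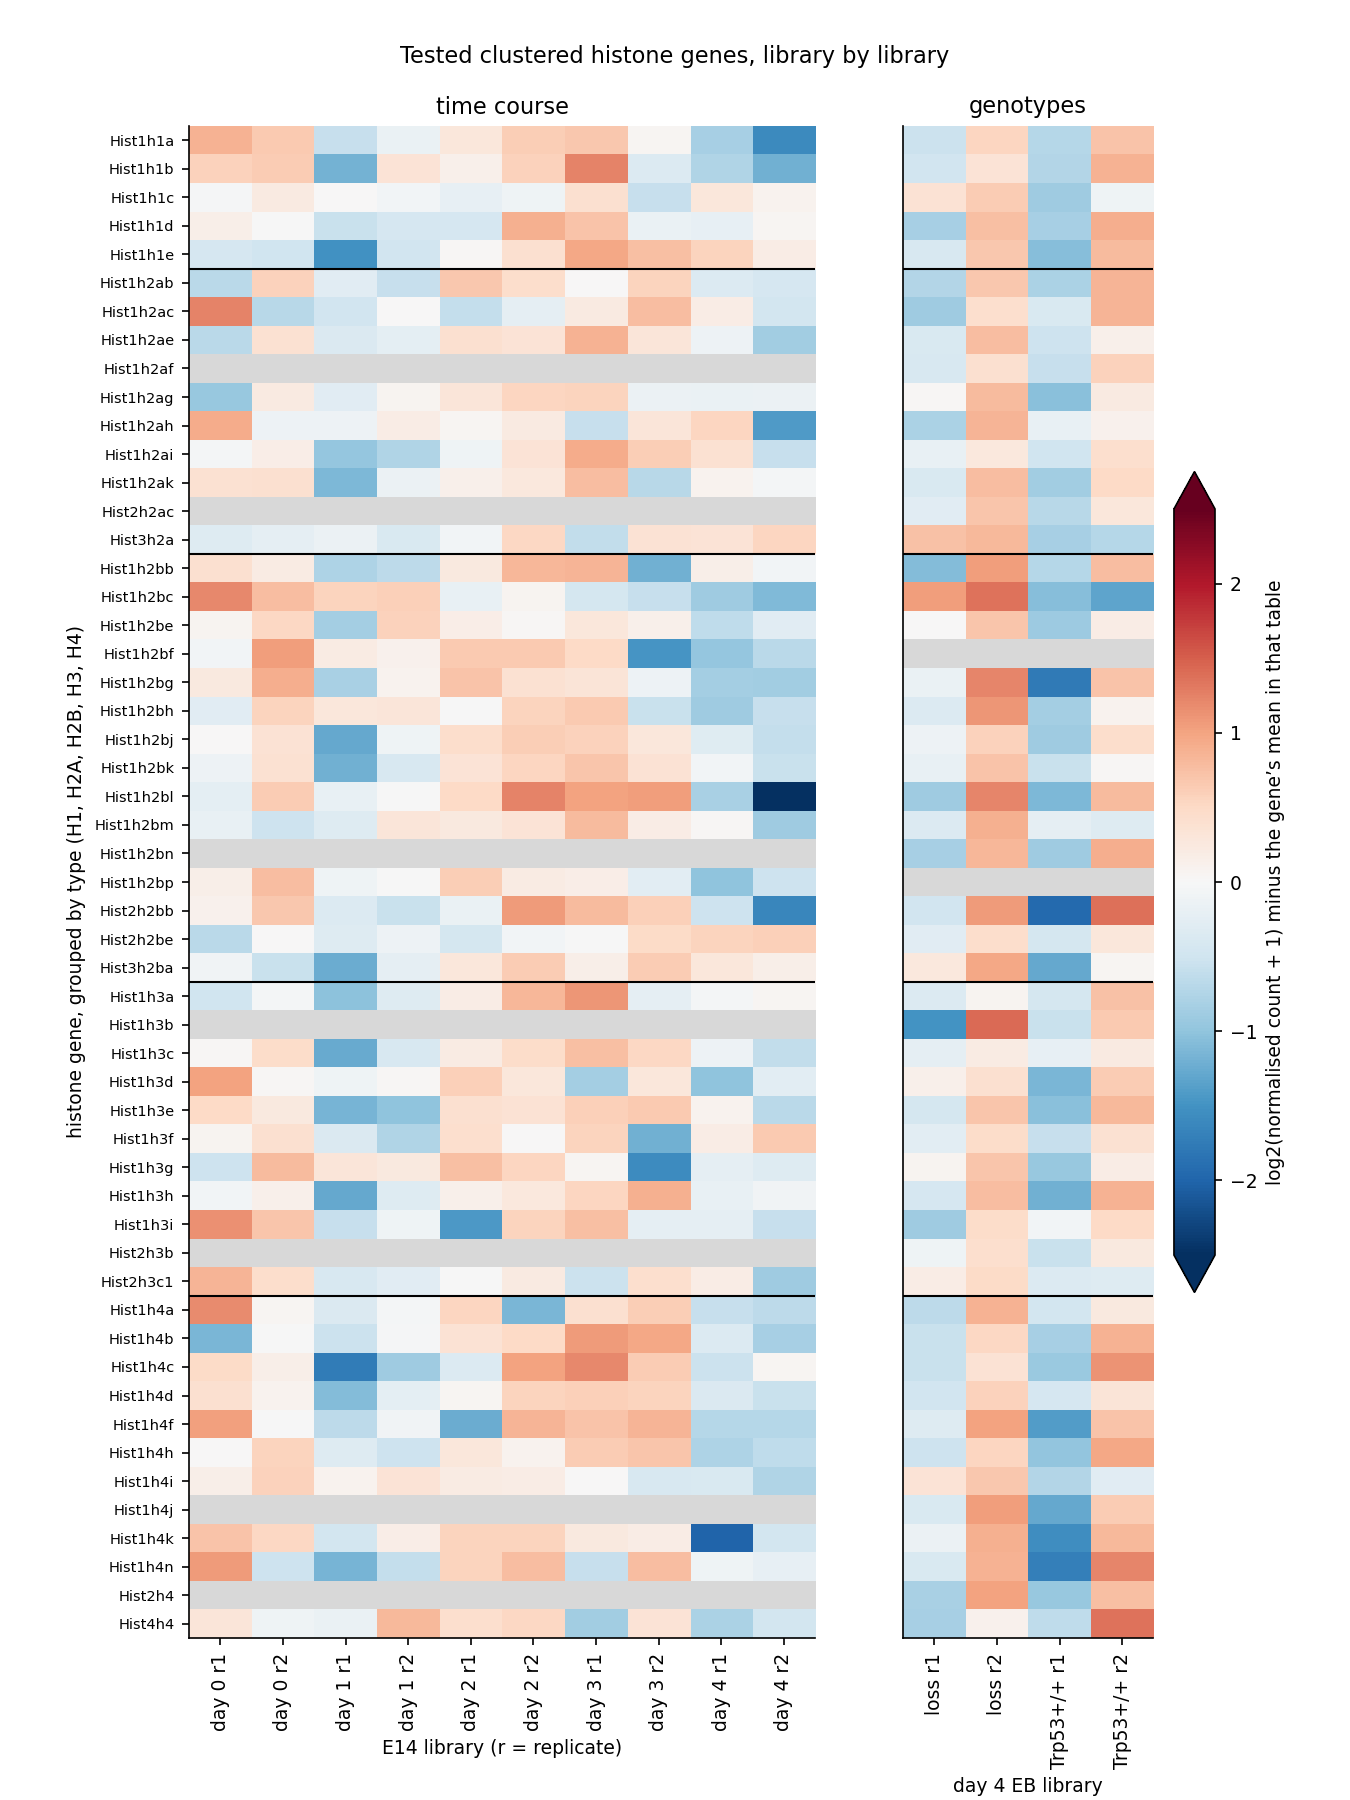
Each histone gene tested in at least 1 table, by type from top to bottom, with its log2(normalised count + 1) in each library minus its mean in that table (grey where not tested in that table). Most day 1 and day 4 cells are blue, and in the genotype panel replicate 2 is redder than replicate 1 for 49 of 51 genes in both genotypes, while Hist1h2bc and Hist3h2a are red in p53 family loss and blue in Trp53+/+.

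Reads were unevenly spread over the family. Hist1h1c, Hist1h2bc, Hist1h4i, Hist3h2a and Hist3h2ba, the 5 with most reads, held 44.0% of the family's reads, and the same 5 led in the time course alone with 42.5%. Grouping them was decided after their values were seen. Their sum was 18.5 to 23.2 RPM in all 10 E14 libraries. It was 18.5 and 20.0 at day 1 and 20.8 and 18.9 at day 4, against 21.9 and 22.3 at day 0. On both days it lay below day 0 but overlapped days 2 and 3. The dips of days 1 and 4 were larger in the other 63 genes. Those summed to 26.6 and 31.1 at day 0, 15.8 and 22.2 at day 1, 30.5 and 37.5 at day 2, 41.0 and 33.3 at day 3, and 23.6 and 19.03 at day 4.

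Within the 5, the courses differed. Hist1h2bc declined, as given above, while Hist3h2a, an H2A gene of the small Hist3 cluster, had 138 and 159 normalised counts at day 4, against 86.7 and 92.6 at day 0. Hist1h1c had 236 and 207 at day 4, against 190 and 227 at day 0, and overlapped. Of the 5, Hist1h2bc was the one with more than 1 RefSeq transcript, 2 transcripts spanning 8282 bases, and so has no level per length here. In RPM per kilobase of transcript, the other 4 stood highest of the 61 genes with 1 transcript under 1000 bases, at 8.86 (Hist1h1c), 7.27 (Hist3h2a), 6.87 (Hist1h4i) and 6.24 (Hist3h2ba) as time course means. The medians by type on this scale were 1.33 for H1, 0.437 for H2A, 0.637 for H2B, 0.659 for H3 and 0.62 for H4.

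**Figure D4:**
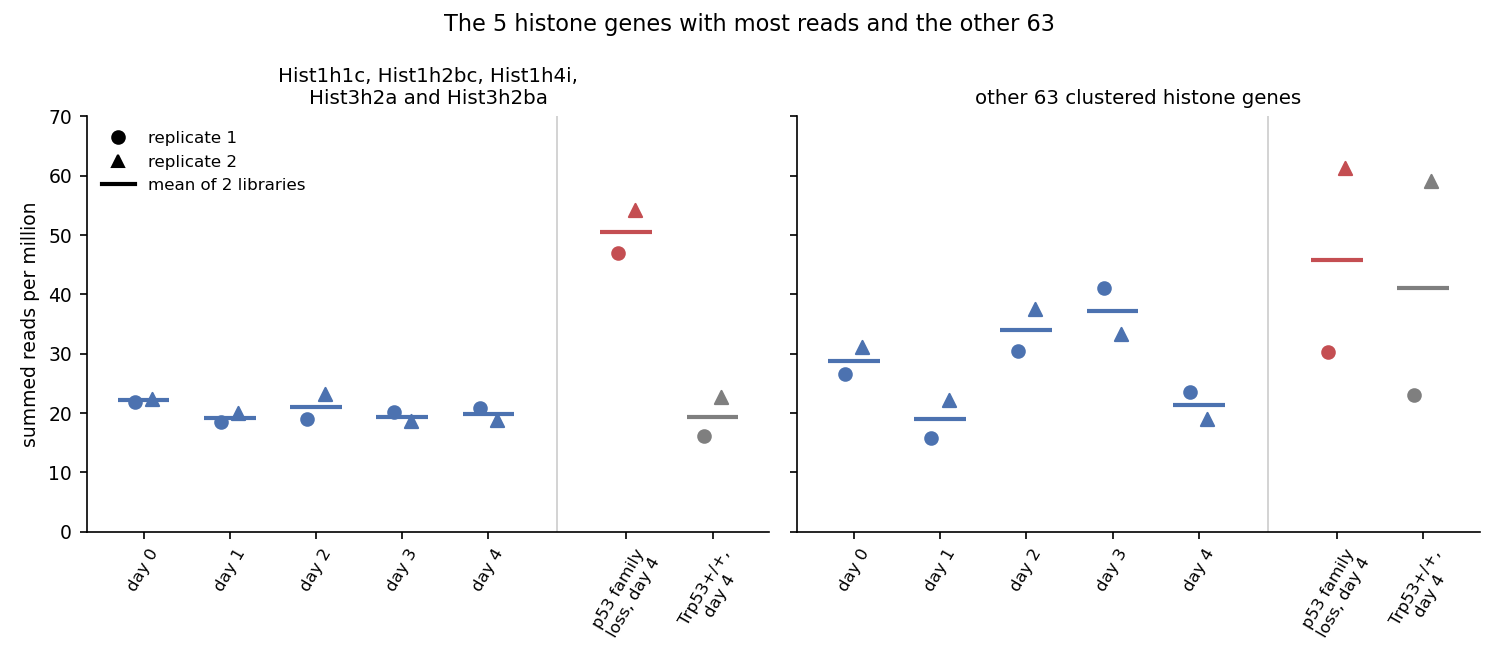
Summed RPM of the 5 histone genes with most reads (left) and of the other 63 (right), by library (circles replicate 1, triangles replicate 2, bars means of 2). On the left the p53 family loss libraries stand at 46.9 and 54.3, above all 12 other libraries, and on the right both replicate 2 libraries of the genotype table stand at 61.3 (p53 family loss) and 59.0 (Trp53+/+).

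In the genotype table, 2 patterns were seen, 1 that went with the replicate number and 1 with the genotype. The whole family summed to 77.2 and 115.6 RPM in p53 family loss, against 39.1 and 81.7 in Trp53+/+, so the groups overlapped. Replicate 2 had 1.5 times the sum of replicate 1 in p53 family loss (interval 1.42 to 1.58) and 2.09 times in Trp53+/+ (1.93 to 2.26, counting error only). Of the 51 histone genes tested, 51 were higher in replicate 2 in p53 family loss and 49 in Trp53+/+, where 53.2% and 48.9% of all genes tested were. The median difference was 1.06 and 1.26 on the log2 scale, against 0.0258 and -0.012 over all genes.

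The size of that difference varied between genes. Hist2h2bb, named here for its values, had 49.0 normalised counts in replicate 2 and 16.3 in replicate 1 of p53 family loss, and 61.0 and 5.21 in those of Trp53+/+. Across the 51 genes the 2 differences had a Pearson r of 0.38 and a Spearman rho of 0.407, a description only, since all genes share the same 4 libraries. The labels name no batch, culture or preparation that the replicate numbers stand for. S phase genes such as those of the MCM helicase summed to 4477 and 4877 RPM in p53 family loss, against 4336 and 4817 in Trp53+/+, so they too were higher in replicate 2, by far less. Small non-polyadenylated RNA genes summed to 141 and 117 in p53 family loss, against 151 and 148 in Trp53+/+. ES cell markers summed to 548 and 707 in p53 family loss, against 800.4 and 1229 in Trp53+/+, and so were higher in replicate 2 of both genotypes. The part of any of these in the replicate pattern was not tested.

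Against this, 2 histone genes rose with p53 family loss by limma (adjusted p under 0.05 over 14840 genes) and none fell, of 51 tested, where 0.566% of all genes rose and 0.674% fell (1.24% in all). Hist1h2bc had 238 and 293 normalised counts in p53 family loss, against 53.9 and 45.1 in Trp53+/+, a log2 fold change of 2.40 ± 0.28 (SE, adjusted p = 0.0197). The groups stood well apart and the difference was 2.12 among replicates 1 and 2.67 among replicates 2. Hist3h2a had 270.5 and 286 in p53 family loss, against 91.2 and 99.5 in Trp53+/+, a log2 fold change of 1.53 ± 0.24 (SE, adjusted p = 0.0452). Its 2 replicates were close in each genotype, and its call was lost without either p53 family loss library, with scaling to library totals, or when 10 reads were asked of every library.

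At an unadjusted p under 0.05 there were 5, where 13.9% of all genes reached it, and the other 3 were the rest of the 5 genes with most reads. Hist1h1c had 297 and 356 normalised counts in p53 family loss, against 124 and 214 in Trp53+/+ (log2 fold change 0.99 ± 0.31, SE). Hist1h4i had 155 and 195 in p53 family loss, against 73.8 and 101 in Trp53+/+ (1.00 ± 0.29, SE). Hist3h2ba had 134 and 219 in p53 family loss, against 45.2 and 115 in Trp53+/+ (1.23 ± 0.49, SE). For each, both p53 family loss libraries lay above both Trp53+/+ libraries, but the adjusted p was 0.199 to 0.343 by limma. In all, 6 of the 51 lay above without overlap, where 23% of all genes did, and none below, where 20.2% did. The count called was 7 without replicate 2 of Trp53+/+, which is 1 of the 2 libraries with raised histone reads, where 7.25% of all genes tested were then called, against 1.24% with it. It was 1 without either p53 family loss library (1.37% and 1.44% of all genes).

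The 5 genes summed to 46.9 and 54.3 RPM in p53 family loss, against 16.1 and 22.7 in Trp53+/+. The other 63 summed to 30.3 and 61.3 in p53 family loss, against 23.0 and 59.0 in Trp53+/+. Among replicates 1, 40 of 51 tested genes were higher in p53 family loss (median 0.371), and among replicates 2, 30 of 51 (median 0.188). By type, the median log2 fold change was 0.546 for H2B, 0.246 for H3, 0.238 for H2A, 0.204 for H4 and -0.00879 for H1, against 0.00703 over all genes. Since the 5 were grouped with these values known, the split describes the libraries and is no test.

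**Figure D5:**
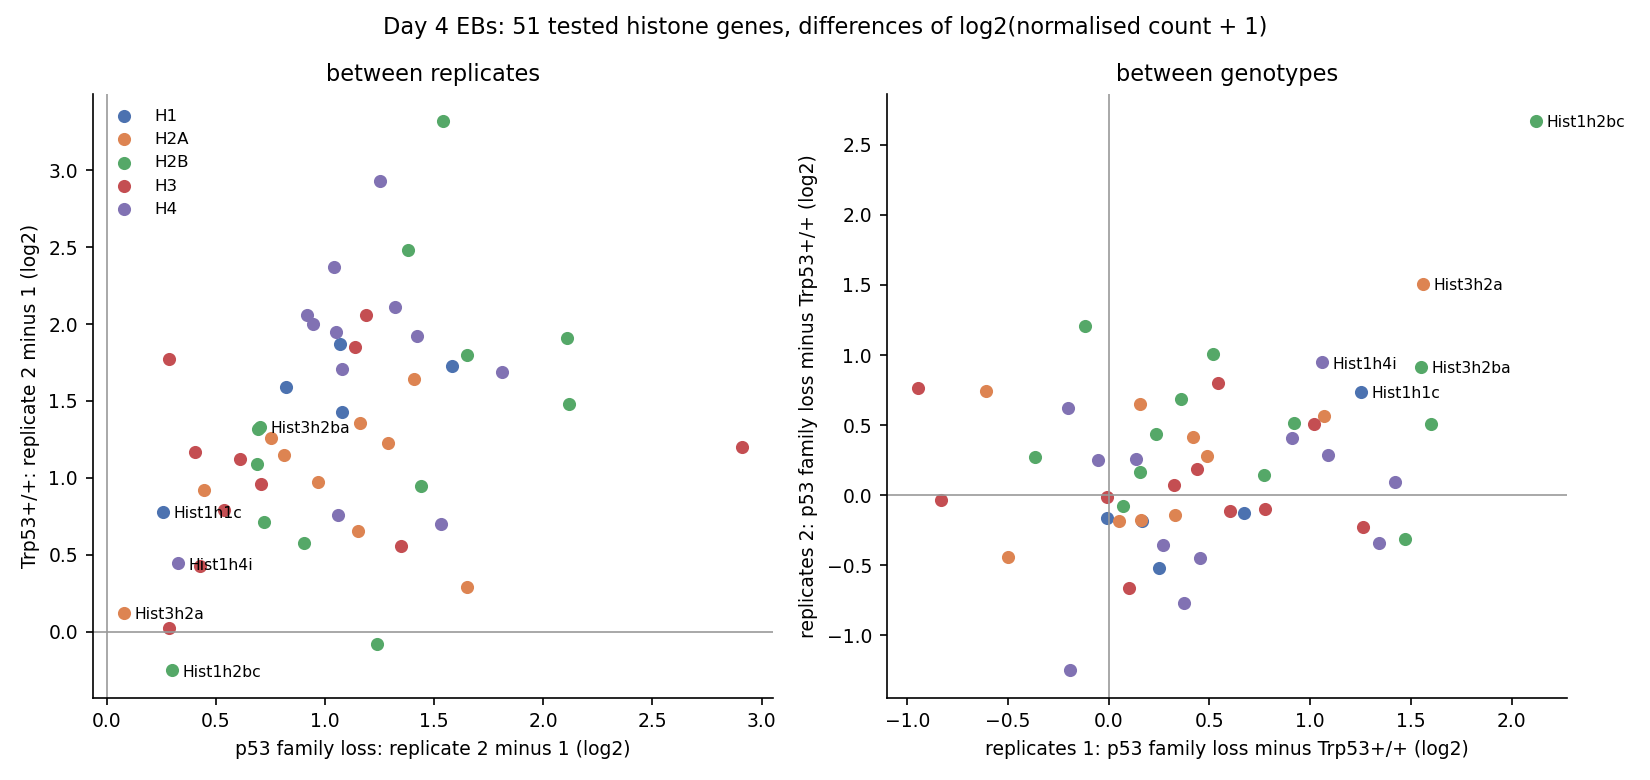
The 51 histone genes tested in day 4 EBs, coloured by type. On the left, replicate 2 minus replicate 1 in p53 family loss (x) and in Trp53+/+ (y), on the right, p53 family loss minus Trp53+/+ among replicates 1 (x) and among replicates 2 (y), all as differences of log2(normalised count + 1). Nearly all points on the left lie above 0 on both axes, and on the right Hist1h2bc at 2.12 and 2.67 and Hist3h2a at 1.56 and 1.51 stand apart.

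Hist1h2bc and its neighbour Hist1h2ac, a pair chosen after their values were seen, are an H2B and an H2A gene. Hist1h2ac had 23.6 and 59.4 normalised counts in p53 family loss, against 33.9 and 80.9 in Trp53+/+, and followed the replicate number. Its log2 fold change was -0.47, against 2.40 for Hist1h2bc. Between day 4 and day 0 it had 7.42 and 4.35 at day 4, against 16.5 and 3.56 at day 0, where Hist1h2bc fell. The difference between the neighbours was not itself tested. Hist3h2a and Hist3h2ba, the H2A and H2B genes of the Hist3 cluster described above, were both above 0 between the genotypes, at 1.53 and 1.23.

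Markers of several cell types differed between the genotypes, where limma called 0.566% of all genes higher and 0.674% lower. Streak and mesoderm markers summed to 292 and 246 RPM in p53 family loss, against 1267 and 1335 in Trp53+/+, with 4 of 6 lower. Endoderm markers summed to 57.98 and 59.25 in p53 family loss, against 239.7 and 142.2 in Trp53+/+, with 1 of 4 lower. Neural markers summed to 200.4 and 193 in p53 family loss, against 17.9 and 41.3 in Trp53+/+, with 2 of 3 tested higher. Fibroblast markers summed to 99.9 and 80.6 in p53 family loss, against 39.5 and 37.2 in Trp53+/+, with 1 of 4 higher. The part of cell makeup in the histone values was not tested.

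Genes that make and handle histone mRNA were read from lists of known genes. Slbp fell between day 0 and day 4, with 2932 and 3732 normalised counts at day 4 against 5363 and 4320 at day 0 (log2 fold change -0.54 ± 0.19, SE, limma adjusted p = 0.0481). It was the only one of 15 tested genes of histone mRNA processing and decay to be called, where 16.7% of all genes were called lower and 19.2% higher. In the genotypes it had 1669 and 1833 in p53 family loss, against 2701 and 2968 in Trp53+/+, without overlap, and did not pass (-0.69 ± 0.15, adjusted p = 0.111). Npat, the histone locus coactivator, had 2963 and 2657 at day 4, against 1903 and 2653 at day 0, and was not called (adjusted p = 0.249).

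Among 11 genes of histone gene transcription, Ccne1 (cyclin E1) and E2f2 fell between day 0 and day 4 and E2f3 rose, where 16.7% of all genes were called lower and 19.2% higher. Ccne1 had 3648 and 4240 normalised counts at day 4, against 6111 and 12230 at day 0. Of 14 histone chaperones, Asf1a, Asf1b and Nasp fell, and of 18 S phase genes, Mcm5, Gins1, Cdt1 and Pcna fell and none rose, against the same shares of all genes. Between day 1 and day 0, limma called none of the 18 S phase genes, where it called 3.3% of all genes. Of these 18, 3 were at an unadjusted p under 0.05, where 20.1% of all genes were. edgeR and DESeq2 called none of them, where they called 3.18% and 9.15% of all genes. The median log2 fold change of the 18 was 0.277. Their summed level was 5859 and 6008 RPM at day 1, against 4570 and 5349 at day 0.

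Replacement histones can be made outside replication, and most come from polyadenylated mRNA. Of the 11 listed, the linker genes H1f0 and H1fx rose between day 0 and day 4 and H2afx fell. Of all genes, limma called 19.2% higher and 16.7% lower. H1f0, the H1 of differentiating cells, had 9738 and 7903 normalised counts at day 4, against 982 and 1977 at day 0, a log2 fold change of 2.65 ± 0.39 (SE, limma adjusted p = 0.000765). H1fx had 3234 and 3070 at day 4, against 1532 and 1393 at day 0 (1.11 ± 0.18, adjusted p = 0.0013). H2afx fell (-0.59 ± 0.19, adjusted p = 0.0315), and the other 8 of the 11 were not called. In the genotypes limma called none of the 11 replacement histones, 15 processing genes, 11 transcription genes, 14 chaperones or 18 S phase genes, where it called 1.24% of all genes. At an unadjusted p under 0.05 these lists had 2, 2, 2, 0 and 0 genes in that order, where 13.9% of all genes reached it. edgeR called none of them (1.24% of all genes), and DESeq2 called 1 replacement histone and 1 processing gene (4.43%). Of 12 G1 arrest genes, Cdkn1a and Ccng1, both p53 targets, fell in p53 family loss and Cdkn2a rose, where 0.674% of all genes fell and 0.566% rose.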

How the data were processed

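RNA-seq libraries were made with the TruSeq RNA v2 kit and sequenced as paired ends, per the labels' protocols. The submitters' processing notes name, without their roles, the build mm9, the tools Bowtie2 and DESeq2 with no version, HTSeq 0.5.4, SAMtools 0.1.19 and FastQC 0.11.3. The deposited signal is a read count divided by 1 factor per library, made by the authors. All values were whole multiples of their library's smallest step (tolerance 1e-06), so whole reads were recovered and RPM computed from their totals. How multiply matching reads were treated is not given in the sources used here. The 2 tables have different factors and are set side by side only in RPM.

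The trended empirical Bayes fit of limma 3.58.1 (R 4.3.3) was made to log2(signal + 1) over genes kept by the filterByExpr function of edgeR on recovered reads, in 1 fit for the 10 time course libraries and 1 for the 4 genotype libraries, 2 per group. This scale understates changes of low genes. Benjamini-Hochberg adjustment ran over all genes tested. Alternatives were edgeR 4.0.16, DESeq2 1.42.0, pseudocounts of 0.5 and 8, scaling to library totals, other filters on low counts, a replicate block and leaving out each library. On simulated data the test called 11.9% of genes changed 2-fold between day 4 and day 0, 73.1% at 4-fold, and 90.9% at 8-fold. For the genotypes it called 37.3%, 80.6% and 90.9%. The genes changed were drawn at random from all genes tested, so these rates need not hold for histone genes. The median histone gene had 100 reads over the 10 time course libraries. Intervals of sums and ratios are exact at 95% and, like the floor of 3 reads, cover counting error only.

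The histone genes and the other gene lists were chosen with earlier results of these data known. Genes named were the 2 most abundant of each type and table, up to 3 called rises and falls per comparison, the testis forms, Hist1h1a to Hist1h1e, Hist4h4, the targeted genes, Slbp, Npat, Cdkn1a, and up to 2 called genes per other list. Any other gene named was chosen after its values were seen. Promoter sequences are RefSeq's (GRCm38.p6), matched by symbol and synonym, and no coordinates were converted. The 16 ChIP-seq and input samples were not analysed here. Python 3.11.15, SciPy 1.17.1, pandas 2.3.3, NumPy 2.4.6 and matplotlib 3.10.9 were used.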

Additional observations from a re-analysis of the deposited data

How the results depend on the processing

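Of 1883 values of single histone genes under the alternatives, 1814 kept their side of the threshold, 44 lost a call, 25 gained one and no call reversed. Genes that were not called could change direction. The median log2 fold change of the tested histone genes between the genotypes was 0.313. It was -0.195 without replicate 2 of p53 family loss and -0.367 without replicate 1 of Trp53+/+. For day 4 against day 0 (4 called), edgeR called 2 and leaving out 1 library gave 2 to 6. For the change over any day (4 called), leaving out 1 library gave 1 to 8. For day 1 against day 0 and day 2 against day 1 (0 called each) it gave 0 to 1, and for day 4 against day 3 (0 called) 0 to 3, where DESeq2 called 1. For the genotypes (2 called), asking 10 reads of every library gave 1, scaling to library totals gave 1, and leaving out 1 library gave 1 to 7. On the deposited signal in place of RPM, the log2 ratio of summed levels at day 4 against day 0 was -0.242 for H1 (-0.0863 in RPM), -0.806 for H2B (-0.65) and -0.901 for H4 (-0.745). Without the gene of the type with most reads, an alternative chosen after seeing the data, it was -0.64 for H1, -0.0784 for H2B and -0.175 for H2A, against 0.289 with Hist3h2a, and for the genotypes 0.153 for H2A, against 0.783. Cdkn1a at day 4 against day 0 was 1.01 without replicate 1 of day 0 and -1.95 without replicate 2, against -0.47 with both. The cause of these changes was not tested. A fit that leaves a group 1 library assumes that it varies like the others.

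With the replicate block, 5 histone genes were called between the genotypes (Hist1h1c, Hist1h4i and Hist3h2ba beside Hist1h2bc and Hist3h2a), where 20.0% of all genes were called against 1.24% without the block, 3 at day 4 against day 0, 3 over any day and 0 in each step from day to day. Deviations of same-numbered libraries correlated at 0.572 across the genotypes, with 2 pairs only, and at -0.19 to 0.351 between days, and the labels do not pair them, so the samples share only a number. Low counts limit most of the family, whose median gene had 152 reads over 14 libraries.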
